A study of Mus musculus with 7 samples.

Results

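Genes that encode the enzymes cutting and crosslinking the extracellular matrix, together with the inhibitors of those enzymes, were examined in outflow tracts (OFTs) of control and Gata6STOP/+ mouse embryos. Members were taken from the expression table by symbol. They were the rows named *Adamts*, *Adamtsl*, *Adam* or *Mmp* with a number, *Timp1* to *Timp4*, *Lox*, *Loxl1* to *Loxl4* and *Reck*. This gave 52 of the 14732 genes in the table. Of 91 genes of these families written down by hand, the other 39 had no row and were not analysed here, among them *Timp4*, *Mmp3*, *Mmp9*, *Mmp13* and *Adamts16*. The 52 comprised 17 ADAMTS proteases, 5 ADAMTS-like proteins, 12 ADAM proteins, 9 matrix metalloproteinases (MMPs), 4 inhibitors and 5 lysyl oxidases. They lay on 20 different chromosomes.

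ADAM proteins are membrane-anchored and many of them cut other membrane proteins close to the cell surface, a step called shedding that releases growth factors and starts Notch signalling. MMPs and ADAMTS proteases cut collagens, proteoglycans such as versican, and other matrix components, and the TIMP proteins and RECK restrain them. Lysyl oxidases act in the opposite sense and crosslink collagen and elastin. In the OFT, turnover of versican-rich cushion matrix accompanies the shaping of the arterial valves, and crosslinked elastic fibres form in the wall of the great arteries.

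The OFT is the segment of the embryonic heart by which the ventricles empty into the aortic sac. RNA came from OFTs dissected at embryonic day (E) 11.5, with several OFTs pooled for each library. Control pools were labelled WT (replicates 3, 4 and 5). Gata6STOP/+ pools (replicates 1, 3, 4 and 5) came from embryos heterozygous for a CRISPR-Cas9 frameshift that truncates the reading frame of a single *Gata6* allele by an early stop. *Gata6* encodes a zinc-finger transcription factor. The line descended from a selected founder backcrossed to C57BL/6, the mutation was carried in the germline, and no other treatment or allele is given for either group. The study's methods describe 3 pools for each genotype, made of 4 OFT pairs, but the labels list 3 control and 4 Gata6STOP/+ pools. All 7 were used. Nothing states that the pools came from separate litters, so the errors below describe the spread between pools. In bulk tissue, fewer cells of a type cannot be told apart from less RNA per cell.

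Values are CPM, that is, reads brought to a common library total by the authors with the trimmed mean of M-values. The reads on listed genes numbered 17783655 to 29035529 in control pools and 24736761 to 34467710 in Gata6STOP/+ pools. For the targeted gene *Gata6* the mean was 286±28.9 CPM in control (s.d., n=3) and 227±28.7 CPM in Gata6STOP/+ (s.d., n=4). Its log2 fold change was −0.34, with a limma *P*-value of 0.0058 unadjusted and 0.389 adjusted. Limma thus did not call the targeted gene after adjustment. The paper, with a different test (a generalized linear model in edgeR), reports it as decreased by RNA-seq, at −0.42, and by quantitative PCR. Here edgeR's likelihood ratio test gave −0.34 (adjusted *P*-value 0.154). With pools of equal number fitted as a block, it gave −0.42 (adjusted *P*-value 0.0164). Limma with such a block gave −0.42 too (adjusted *P*-value 0.213). The call on *Gata6* therefore varied with the test and the block. Markers of cell types of the OFT were present in every pool. The 9 cardiomyocyte markers summed to 20419 to 23089 CPM in control and 16170 to 23639 CPM in Gata6STOP/+ pools. The 6 smooth muscle markers summed to 2478 to 2919 and 2585 to 3431 CPM, and the 9 endothelial markers to 820.4 to 1065 and 897 to 1117 CPM. The 6 listed neural crest and glia markers summed to 117 to 163 CPM in control and 85.8 to 99.3 CPM in Gata6STOP/+ pools. Macrophage and erythroid markers were also detected. Of 8 markers of pharyngeal and foregut epithelium, only 3 were in the table (*Krt8*, *Krt18* and *Sox2*) and 5 had no row. No listed marker was at 0 in any pool, in a table that holds only genes past a filter on level.

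Levels were first compared between members after division by exon length, as CPM per kb. *Loxl2*, a lysyl oxidase, had the highest level, at 190±32 CPM per kb in control pools (s.d., n=3) and 191±18.5 CPM per kb in Gata6STOP/+ pools (s.d., n=4). *Mmp2*, the gelatinase that degrades denatured and basement-membrane collagen, came next in control at 100±2.24 CPM per kb. *Adam19*, a protease required for cardiac valve and septum formation in mice, followed at 60.2±5.90 CPM per kb. *Adam10*, *Timp2*, *Mmp14*, *Mmp15*, *Loxl1* and *Adamts1* had between 39.5 and 50.3 CPM per kb in control. The first 4 of these 6 spanned 48.2 to 50.3 CPM per kb, within their s.d. of one another. In all, 17 members exceeded 10 CPM per kb in control and 11 were below 1 CPM per kb, the lowest being *Adamtsl3*, *Mmp25* and *Adamts20*.

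Summed by role, the 5 lysyl oxidases took 28.7% of the CPM per kb of the 52 genes in control pools, most of it from *Loxl2*. The 9 ADAM proteins with an intact protease took 18.3%, the 6 membrane-anchored MMPs 14.3%, the 3 secreted MMPs 13.8% and the 4 inhibitors 10.6%. The 7 proteoglycan-cleaving ADAMTS genes took 7.59%. The remaining ADAMTS, ADAMTS-like and inactive ADAM genes each took under 4% as groups. The sum over all 52 genes was 885±53.6 CPM per kb in control pools (s.d., n=3) and 890±87.4 in Gata6STOP/+ pools (s.d., n=4). The group means thus differed by less than the s.d. of either group.

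**Figure D1:**
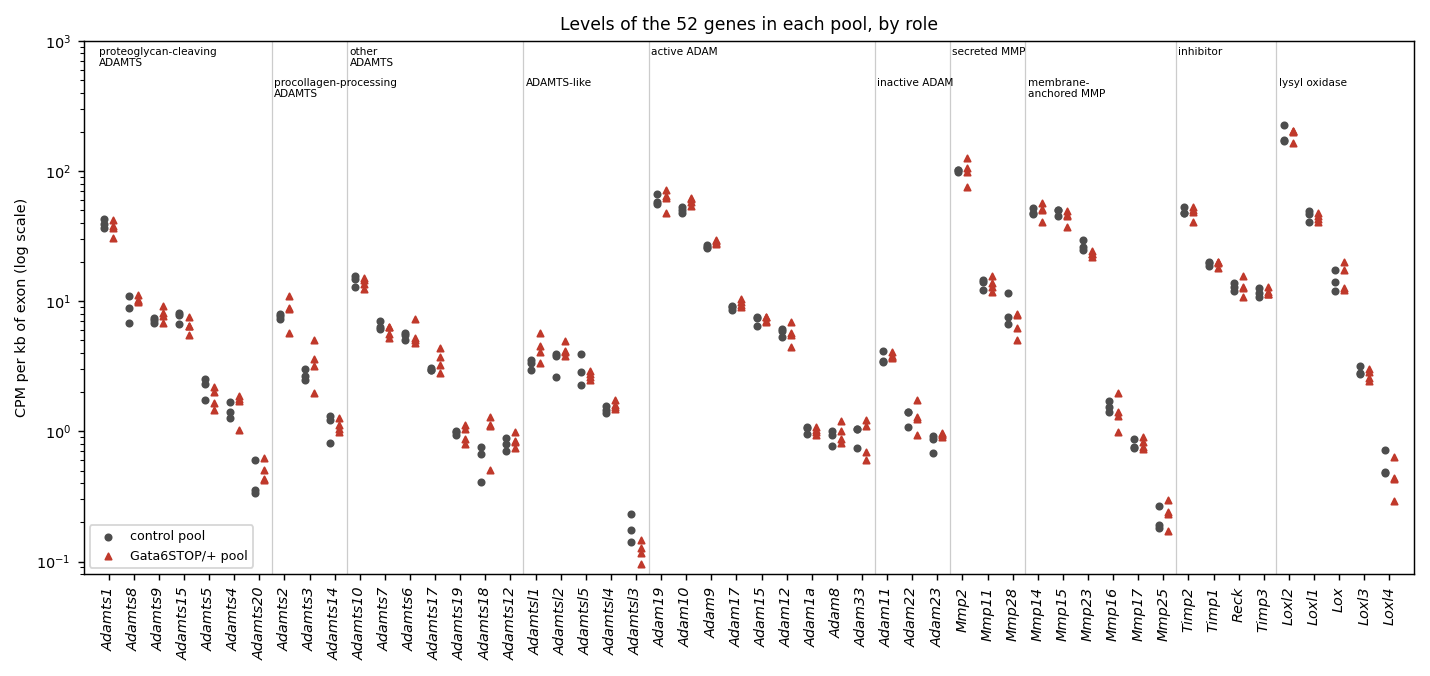
Level of each of the 52 genes in CPM per kb of exon on a log axis, with grey circles for the 3 control pools and red triangles for the 4 Gata6STOP/+ pools, grouped by role. *Loxl2* and *Mmp2* stood at the top (190 and 100 CPM per kb in control), and for most genes the symbols of the 2 genotypes covered the same range.

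The question of the comparison was whether loss of 1 functional *Gata6* copy altered the amount of any of these transcripts. By limma on log2(CPM+0.5), with *P*-values adjusted over all 14732 genes, 0 of the 52 passed the threshold of 0.05, as did 0 of all genes (0%). Count tests on the recovered reads also called 0 members, where 0.713% of all genes were called by edgeR's likelihood ratio test and 0.597% by DESeq2. At an unadjusted *P*-value under 0.05 there were 4 members, *Adam10*, *Mmp23*, *Adamtsl1* and *Adamtsl2*, against 8.06% of all genes. Among the members 28 were higher and 24 lower in Gata6STOP/+ pools, and 49.8% of all genes were higher. The median log2 fold change was 0.014 over the members and −0.00073 over all genes. The individual changes ranged from −0.41 for *Adamtsl3* to 0.63 for *Adamts18*, and 37 of the 52 were smaller than 0.2 in size, as were 83.5% of all genes.

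The precision of each change was read from its 95% interval, which is for a single gene and is not adjusted over genes. Such an interval does not give the change that the adjusted threshold could miss. For 42 members the interval lay within a 1.5-fold change in either direction. The 10 others were *Adam33*, *Adamts3*, *Adamts5*, *Adamts18*, *Adamts20*, *Adamtsl1*, *Adamtsl2*, *Adamtsl3*, *Loxl4* and *Mmp28*, among which larger changes were not resolved by 3 and 4 pools. The depth behind the values ranged from 17 reads for *Mmp25* to 36949 reads for *Loxl2* in a pool, and 6 members had a mean below 5 CPM.

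The 4 Gata6STOP/+ pools lay wholly above or below the 3 control pools for 3 of the 52 genes. The share over all genes was 8.47%, or 4.31% higher and 4.16% lower. *Adam10* and *Adam9* were the members above and *Mmp23* the member below. The share of members separated was thus not above that of all genes.

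**Figure D2:**
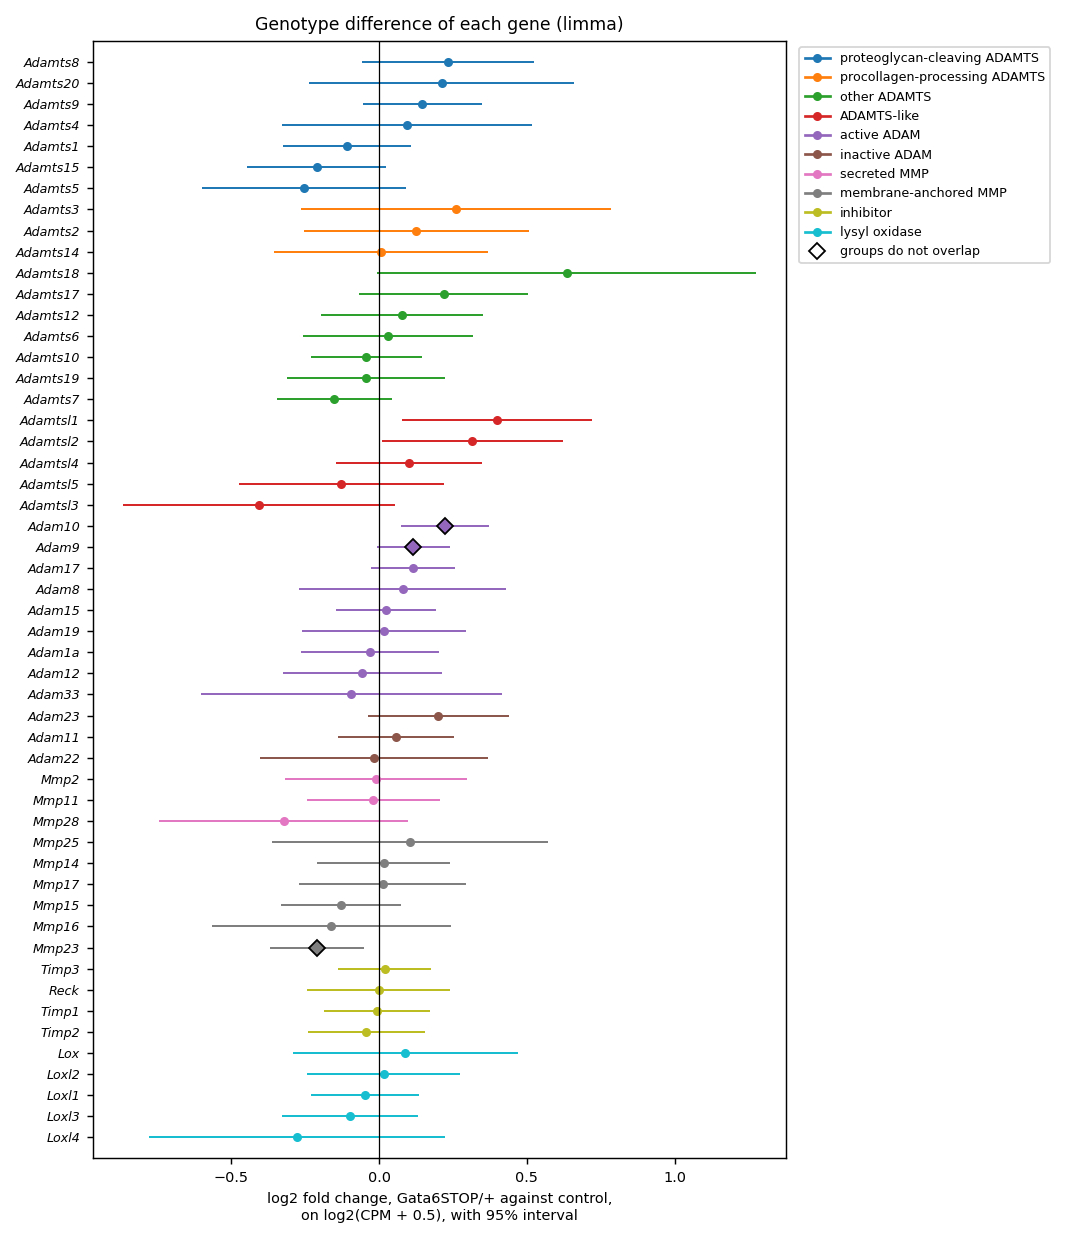
Log2 fold change of each gene between Gata6STOP/+ and control pools on log2(CPM+0.5), with its 95% interval from limma, coloured by role. Diamonds mark *Adam10*, *Adam9* and *Mmp23*, whose groups did not overlap, and the intervals of most genes crossed 0.

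Among the ADAM proteases, *Adam10* (ENSMUSG00000054693, chromosome 9, 70678997 to 70780229, GRCm38) encodes the main sheddase of Notch receptors. Control replicates 3, 4 and 5 held 235, 259 and 248 CPM, and Gata6STOP/+ replicates 1, 3, 4 and 5 held 306, 266, 284 and 298 CPM. The lowest Gata6STOP/+ pool, replicate 3, was above the highest control pool by a small margin. The means were 247±12.4 CPM (s.d., n=3) and 289±17.5 CPM (s.d., n=4). Its log2 fold change was 0.22 (standard error 0.066), with a limma *P*-value of 0.0064 unadjusted and 0.398 adjusted, the smallest adjusted value of the 52.

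*Adam9* (ENSMUSG00000031555, chromosome 8, 24949611 to 25016927) encodes a related sheddase. Its control pools were at 107, 105 and 112 CPM and its Gata6STOP/+ pools at 113, 121, 115 and 120 CPM. The nearest pools of the 2 genotypes, control replicate 5 and Gata6STOP/+ replicate 1, differed by less than the s.d. of either group. On the log2 scale, the change was 0.12±0.054 (standard error, adjusted *P*-value 0.636 by limma).

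*Adam17* (ENSMUSG00000052593, chromosome 12, 21323509 to 21373632) encodes the converting enzyme of tumour necrosis factor and of ligands of the epidermal growth factor receptor. It was at 61.5, 64.2 and 65.3 CPM in control and at 74.1, 65.0, 66.7 and 70.3 CPM in Gata6STOP/+ pools. Only Gata6STOP/+ replicate 3 fell within the control range. The genotypes differed by a log2 fold change of 0.11±0.063 (standard error, adjusted *P*-value 0.698 by limma). *Adam17* overlaps *Iah1* on the opposite strand, and the sources do not state whether reads were counted by strand.

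*Adam19* (ENSMUSG00000011256, chromosome 11, 46055992 to 46147343) was the ADAM gene with the highest level. Control replicates 3, 4 and 5 had 477, 410 and 399 CPM, and Gata6STOP/+ replicates 1, 3, 4 and 5 had 510, 336, 459 and 442 CPM. The highest and the lowest of the 7 pools were both Gata6STOP/+. The log2 fold change was 0.016 (standard error 0.124, 95% interval 0.836- to 1.22-fold). *Adam12*, *Adam15*, *Adam1a*, *Adam8* and *Adam33*, the other members with a protease active site, had log2 fold changes from −0.094 to 0.080.

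The inactive ADAM proteins lack a working protease site and act in cell adhesion, mainly in neural tissue. *Adam11* (ENSMUSG00000020926), the one with the highest level, was at 19.6, 23.3 and 19.3 CPM in control and at 21.0, 20.6, 22.9 and 21.6 CPM in Gata6STOP/+ pools. All 4 of the latter lay inside the control range (log2 fold change 0.057, standard error 0.088, limma adjusted *P*-value 0.90). *Adam22* and *Adam23* had log2 fold changes of −0.016 and 0.20.

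Among the membrane-anchored MMPs, *Mmp23* (ENSMUSG00000029061, chromosome 4, 155650655 to 155653384) was lower in Gata6STOP/+ pools. It encodes a short MMP that is released from the membrane as it matures. Control replicates 3, 4 and 5 were at 68.4, 57.8 and 61.3 CPM, and Gata6STOP/+ replicates 1, 3, 4 and 5 at 56.5, 51.0, 54.1 and 53.9 CPM. Every Gata6STOP/+ pool was below every control pool, although control replicate 4 and Gata6STOP/+ replicate 1 were near each other. Its log2 fold change was −0.21 (standard error 0.071, limma unadjusted *P*-value 0.013, adjusted *P*-value 0.466).

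*Mmp14* (ENSMUSG00000000957, chromosome 14, 54431612 to 54445364) encodes the membrane-type MMP that activates pro-MMP2 with the help of TIMP2. It was at 311, 277 and 285 CPM in control and at 337, 241, 305 and 300.2 CPM in Gata6STOP/+ pools. The control pools lay inside the range of the Gata6STOP/+ pools, and the log2 fold change was 0.015 (standard error 0.10). *Mmp15*, another membrane-type enzyme at a level per kb near that of *Mmp14*, was at 260±16.0 and 239±27.7 CPM. Its log2 fold change was −0.13 (standard error 0.091), and Gata6STOP/+ replicate 1 was the lowest pool. *Mmp16*, *Mmp17* and *Mmp25* had log2 fold changes of −0.16, 0.013 and 0.10.

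The enzyme of which MMP14 is the activator, MMP2, was encoded by the most abundant secreted MMP transcript. *Mmp2* (ENSMUSG00000031740, chromosome 8, 92827291 to 92853420) was at 341, 329 and 343 CPM in control and at 426, 252, 358 and 330.4 CPM in Gata6STOP/+ replicates 1, 3, 4 and 5. The group means were 338±7.57 CPM (s.d., n=3) and 341±72.1 CPM (s.d., n=4). The means were near each other while the spread among Gata6STOP/+ pools was much wider than among control pools. On the log2 scale, the change was −0.010 (standard error 0.138, 95% interval 0.804- to 1.23-fold), opposite in sign to the difference of the means. *Mmp11* and *Mmp28*, the other secreted MMPs in the table, had log2 fold changes of −0.019 and −0.32, the latter with control replicate 3 at 44.4 CPM and the other 6 pools between 19.6 and 30.8 CPM. *Mmp11* overlaps *Chchd10* on the opposite strand.

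The proteoglycan-cleaving ADAMTS enzymes include the versicanases of the heart cushions. *Adamts1* (ENSMUSG00000022893, chromosome 16, 85793827 to 85803113) was at 208, 226 and 195 CPM in control and at 223, 163, 194 and 199.9 CPM in Gata6STOP/+ pools. The groups overlapped, with Gata6STOP/+ replicate 3 as the lowest pool (log2 fold change −0.11, standard error 0.097, limma adjusted *P*-value 0.811). Its neighbour *Adamts5* (ENSMUSG00000022894, 85856173 to 85901828), which lies on the same strand 53.1 kb away, encodes the versicanase required for valve remodelling in mice. It was at 18.7, 24.7 and 27.2 CPM in control and at 21.5, 17.7, 15.7 and 23.7 CPM in Gata6STOP/+ pools, also overlapping. The genotypes differed by a log2 fold change of −0.25±0.155 (standard error, adjusted *P*-value 0.735 by limma).

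*Adamts9* (ENSMUSG00000030022, chromosome 6, 92772699 to 92943492), a versicanase expressed in the developing heart, was at 102, 112 and 108 CPM in control. It was at 137, 102, 116 and 122 CPM in Gata6STOP/+ replicates 1, 3, 4 and 5. Replicate 3 lay inside the control range and the other 3 Gata6STOP/+ pools lay above it, and the log2 fold change was 0.15±0.090 (standard error, adjusted *P*-value 0.736 by limma). *Adamts8* and *Adamts15*, which lie 20.1 kb apart on chromosome 9 on opposite strands, had log2 fold changes of 0.23 and −0.21. *Adamts4* and *Adamts20* had log2 fold changes of 0.095 and 0.21. Of the 7 genes of this role 4 were higher and 3 lower, with a median of 0.095. Their summed level was 67.1±0.409 CPM per kb in control (s.d., n=3) and 65.4±7.06 in Gata6STOP/+ pools (s.d., n=4).

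The 3 procollagen-processing ADAMTS genes, whose products cut the amino-terminal propeptide from fibrillar procollagen, were *Adamts2*, *Adamts3* and *Adamts14*. *Adamts2* (ENSMUSG00000036545, chromosome 11, 50602084 to 50807573) was at 74.1, 67.9 and 71.7 CPM in control and at 103, 52.7, 83.2 and 80.9 CPM in Gata6STOP/+ replicates 1, 3, 4 and 5. Gata6STOP/+ pools held both the highest and the lowest values (log2 fold change 0.13, standard error 0.171, limma adjusted *P*-value 0.890). For *Adamts3* the Gata6STOP/+ pools had the same order, with control pools at 14.5, 16.4 and 13.6 CPM and Gata6STOP/+ pools at 27.4, 10.7, 19.5 and 17.3 CPM. Its log2 fold change was 0.26 (standard error 0.236), and that of *Adamts14* was 0.0058.

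Of the other ADAMTS genes, *Adamts10* (ENSMUSG00000024299, chromosome 17, 33524204 to 33553782) had the highest level. It encodes a protein that binds fibrillin microfibrils. It was at 128, 106 and 122 CPM in control and at 121, 103, 124 and 112 CPM in Gata6STOP/+ pools, overlapping throughout (log2 fold change −0.042, standard error 0.083). *Adamts19* (ENSMUSG00000053441) is known from valve disease caused by its loss. It was at 14.2, 13.8 and 13.1 CPM in control and at 11.2, 15.7, 12.2 and 14.5 CPM in Gata6STOP/+ pools. Its groups overlapped, and here replicate 3 was the highest and replicate 1 the lowest pool (log2 fold change −0.043, standard error 0.119, limma adjusted *P*-value 0.949).

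*Adamts18*, at few reads, had the largest log2 fold change of the 52, 0.63 (standard error 0.288, limma unadjusted *P*-value 0.051, adjusted *P*-value 0.623). Control replicates 3, 4 and 5 were at 4.17, 6.83 and 7.67 CPM, and Gata6STOP/+ replicates 1, 3, 4 and 5 at 13.0, 5.11, 11.3 and 11.4 CPM. Gata6STOP/+ replicate 3 lay among the control pools and the other 3 above them. *Adamts6*, *Adamts7*, *Adamts12* and *Adamts17* had log2 fold changes of 0.030, −0.15, 0.078 and 0.22. *Adamts7*, like *Adamts4* and *Adam1a* above, overlaps another listed gene on the opposite strand. *Adam1a* also overlaps *Mapkapk5* on the same strand, where reads may be hard to assign.

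ADAMTS-like proteins lack the protease domain and bind to microfibrils. *Adamtsl1* (ENSMUSG00000066113, chromosome 4, 85514172 to 86428385) was at 45.1, 42.7 and 37.8 CPM in control and at 72.7, 42.9, 57.3 and 51.9 CPM in Gata6STOP/+ replicates 1, 3, 4 and 5. The groups overlapped through replicate 3 alone, which fell between control replicates 3 and 4. The log2 fold change was 0.40 (standard error 0.144, limma unadjusted *P*-value 0.019, adjusted *P*-value 0.517). *Adamtsl1* overlaps *Sh3gl2* on the same strand, where reads of the 2 genes may be hard to assign.

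*Adamtsl2* (ENSMUSG00000036040, chromosome 2, 27079379 to 27108981) was at 30.2, 20.9 and 31.3 CPM in control and at 30.3, 32.5, 39.8 and 33.1 CPM in Gata6STOP/+ pools. Control replicate 4 was the lowest pool and Gata6STOP/+ replicate 4 the highest, while the other 5 lay between 30.2 and 33.1 CPM. Its log2 fold change was 0.32 (standard error 0.137, limma unadjusted *P*-value 0.043, adjusted *P*-value 0.598), and it was 0.13 without control replicate 4. *Adamtsl3*, *Adamtsl4* and *Adamtsl5* had log2 fold changes of −0.41, 0.10 and −0.13, the first of them at 1.41±0.350 and 0.936±0.166 CPM.

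The 4 inhibitors had log2 fold changes from −0.042 to 0.019. *Timp1* (ENSMUSG00000001131, chromosome X, 20870166 to 20874735) was at 17.9, 16.6 and 17.5 CPM in control and at 16.0, 17.5, 17.7 and 17.9 CPM in Gata6STOP/+ pools. On the log2 scale, the change was −0.0072 (standard error 0.080, 95% interval 0.880- to 1.12-fold). Both genotypes covered nearly the same range for this secreted inhibitor.

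*Timp2* (ENSMUSG00000017466, chromosome 11, 118301069 to 118355740), the inhibitor that also takes part in MMP2 activation, was at 207, 185 and 184 CPM in control and at 207, 159, 195 and 188 CPM in Gata6STOP/+ pools. Gata6STOP/+ replicate 3 was the lowest pool and the groups otherwise covered the same range (log2 fold change −0.042, standard error 0.088). *Timp3* (ENSMUSG00000020044, chromosome 10, 86300372 to 86349506), which binds to the matrix and inhibits ADAM proteases too, was at 94.6, 103 and 87.9 CPM in control. It was at 96.4, 91.8, 93.0 and 104 CPM in Gata6STOP/+ pools, overlapping throughout (log2 fold change 0.019, standard error 0.069, 95% interval 0.911- to 1.13-fold). *Timp3* overlaps *Syn3* on the opposite strand.

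*Reck* (ENSMUSG00000028476, chromosome 4, 43875530 to 43944806) encodes a membrane-anchored inhibitor of MMPs. It was at 61.3, 66.0 and 57.0 CPM in control and at 74.3, 51.3, 61.0 and 60.7 CPM in Gata6STOP/+ replicates 1, 3, 4 and 5. Both extremes were Gata6STOP/+ pools, and the log2 fold change was −0.0013 (standard error 0.108), again opposite in sign to the difference of the means, 61.4±4.50 and 61.8±9.49 CPM. Summed over the 4 inhibitors, the level was 93.4±3.99 CPM per kb in control (s.d., n=3) and 92.3±6.85 in Gata6STOP/+ pools (s.d., n=4).

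Among the lysyl oxidases, *Loxl2* (ENSMUSG00000034205, chromosome 14, 69609068 to 69695834) was at 1227, 917 and 939 CPM in control and at 1089, 884, 1087 and 1074 CPM in Gata6STOP/+ replicates 1, 3, 4 and 5. Control replicate 3 was the highest pool and Gata6STOP/+ replicate 3 the lowest. The genotypes differed by a log2 fold change of 0.016 (standard error 0.115, 95% interval 0.847- to 1.21-fold). *Loxl1* (ENSMUSG00000032334, chromosome 9, 58287738 to 58313186), needed for elastic fibre upkeep, was at 163, 134 and 153 CPM in control and at 157, 133, 140 and 149.8 CPM in Gata6STOP/+ pools (log2 fold change −0.046, standard error 0.081).

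*Lox* (ENSMUSG00000024529), the founding member and essential for arterial wall integrity, was at 57.0, 66.6 and 82.4 CPM in control and at 94.7, 58.6, 59.8 and 82.2 CPM in Gata6STOP/+ pools. The values of the 2 genotypes interleaved, and the log2 fold change was 0.090 (standard error 0.171). *Loxl3* (ENSMUSG00000000693) was at 12.7, 13.0 and 14.7 CPM in control and at 11.9, 13.8, 11.3 and 13.2 CPM in Gata6STOP/+ pools (log2 fold change −0.098, standard error 0.102). *Loxl4* (ENSMUSG00000025185) was at 3.02, 2.07 and 2.02 CPM in control and at 1.86, 1.23, 2.68 and 1.80 CPM in Gata6STOP/+ pools, overlapping as well (log2 fold change −0.28, standard error 0.226). *Loxl3* overlaps *Htra2* on the opposite strand.

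**Figure D3:**
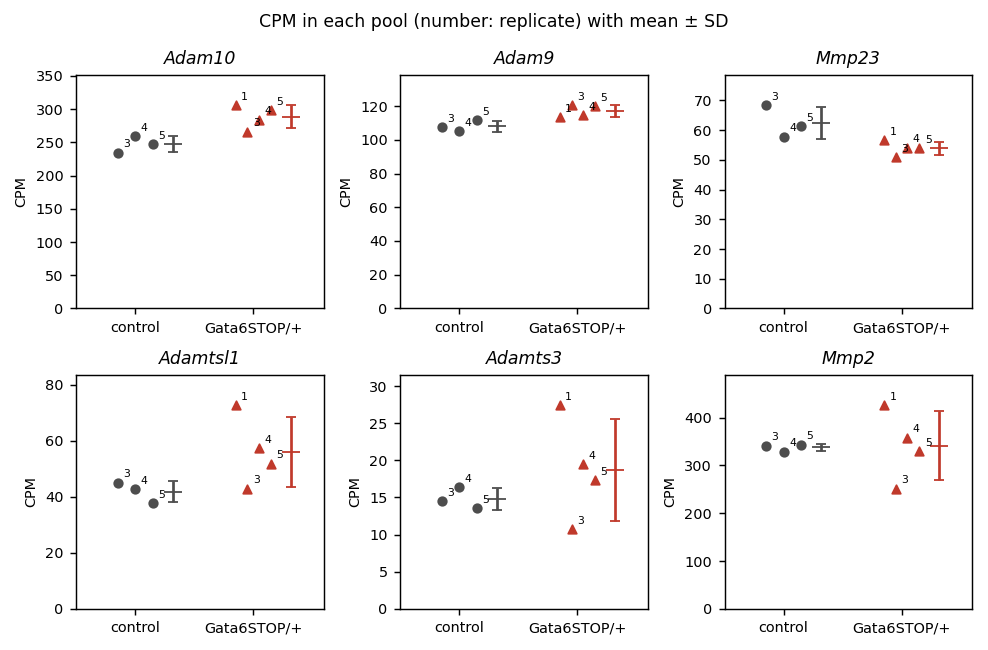
CPM of 6 genes in each pool, with grey circles for control, red triangles for Gata6STOP/+, the replicate number beside each symbol, and the mean with its s.d. to the right. *Adam10*, *Adam9* and *Mmp23* show separate groups, whereas *Adamtsl1*, *Adamts3* and *Mmp2* show replicate 1 as the highest and replicate 3 as the lowest Gata6STOP/+ pool, with all control pools between them for *Adamts3* and *Mmp2*.

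Many members shared an order of the Gata6STOP/+ pools. Gata6STOP/+ replicate 3 was the lowest of the 4 Gata6STOP/+ pools for 36 of the 52 (27.9% of all genes), and replicate 1 was the highest for 27 (29.3% of all genes). Both held for 24 members, against 14.4% of all genes. Across all 7 pools, replicate 3 was the lowest for 24 members (15.2% of all genes) and replicate 1 the highest for 21 (19.3% of all genes).

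Measured as the median deviation of the members from their own mean over the 7 pools, on the log2 scale, Gata6STOP/+ replicates 1, 3, 4 and 5 were at 0.087, −0.16, 0.032 and 0.058. Control replicates 3, 4 and 5 were at 0.0097, −0.028 and −0.032. Over all genes these medians were between −0.00085 and 0.0055 in the 7 pools. Gata6STOP/+ replicate 3 was thus the pool with the lowest median in the members, while the medians over all genes were near 0 in every pool.

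Comparing replicates 1 and 3 directly, 42 of 52 members were higher in replicate 1 (80.8%), against 48.7% of all genes. The difference reached 1.5-fold for 14 members (26.9%) and for 7.36% of all genes. These 14 were *Adam12*, *Adam19*, *Adam22*, *Adam33*, *Adamts2*, *Adamts3*, *Adamts4*, *Adamts17*, *Adamts18*, *Adamtsl1*, *Lox*, *Mmp2*, *Mmp16* and *Mmp28*, all but *Adam33* higher in replicate 1. The procollagen-processing ADAMTS genes had the widest median difference of any role, 0.96 on the log2 scale, and the secreted MMPs followed at 0.64. All 7 proteoglycan-cleaving ADAMTS genes were higher in replicate 1, with a median of 0.43. The ADAMTS-like genes ran the other way, with 1 of 5 higher in replicate 1 and a median of −0.16. *Adam9*, *Loxl3*, *Mmp15* and *Timp1* were also higher in replicate 3.

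Cell type markers differed between the same pools. The median deviation of the 9 cardiomyocyte markers was −0.43 in Gata6STOP/+ replicate 1 and 0.22 in replicate 3. Their summed level was 16170 CPM in replicate 1, the lowest of the 7 pools, and 23639 CPM in replicate 3, the highest. The 8 macrophage markers had a median deviation of 0.66 in replicate 3 and summed to 107 CPM there, against 43.0 to 84.6 CPM in the other 6 pools. The 9 cushion mesenchyme markers had median deviations of 0.011 in replicate 1 and −0.13 in replicate 3. They summed to 1310 and 935 CPM there, against 1209 to 1609 CPM in control pools. Gata6STOP/+ replicates 4 and 5, at 1108 and 1143 CPM, were also below the control pools. Most of the difference between the sums of replicates 1 and 3 came from *Postn*, at 702 and 424 CPM. In replicates 1 and 3, median deviations were −0.43 and 0.067 for erythroid and −0.22 and 0.18 for epicardium and mesothelium markers. They were −0.0018 and −0.32 for neural crest and glia, and −0.060 and 0.26 for pharyngeal and foregut epithelium. The part of these cell types in the order of the pools was not tested.

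**Figure D4:**
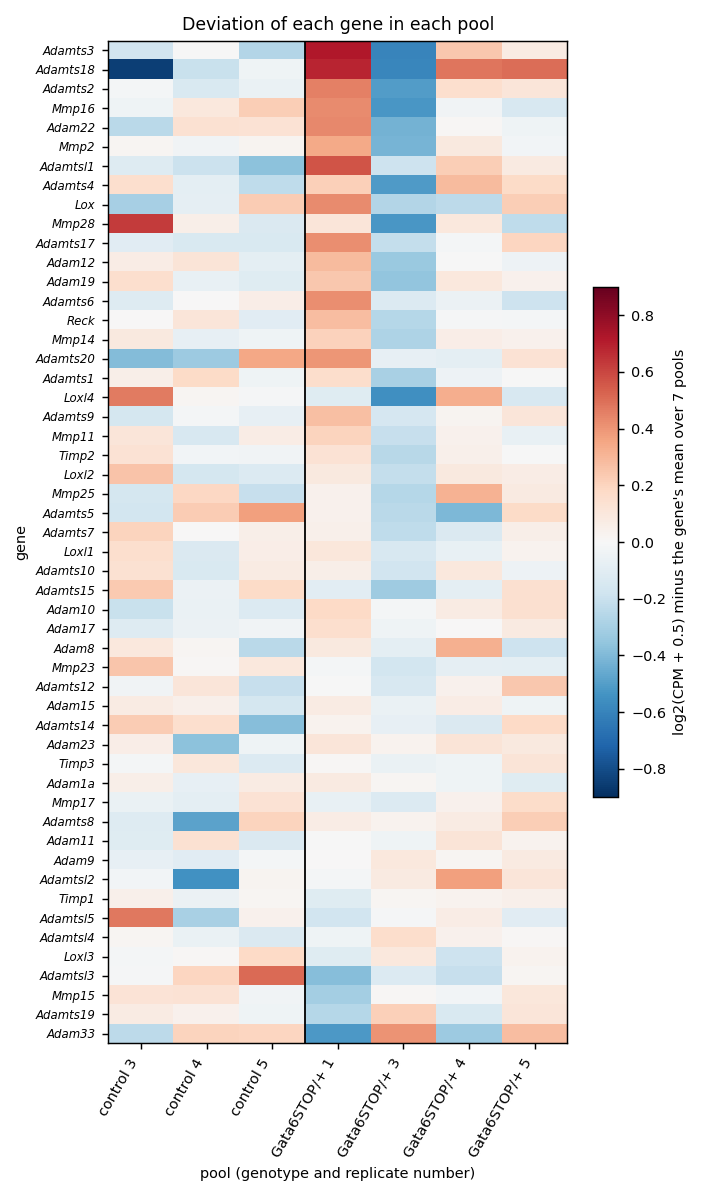
Heat map of log2(CPM+0.5) minus the mean of the gene over 7 pools, with 1 row per gene sorted by the difference between Gata6STOP/+ replicates 1 and 3, and 1 column per pool. The column of replicate 3 is blue (lower) and that of replicate 1 red (higher) for most genes in the upper part, while *Adam33*, *Adamts19* and *Mmp15* at the bottom run the other way.

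Leaving out a pool can only add genes to those separated between genotypes, and leaving out the lowest Gata6STOP/+ pool of a gene can only add it as higher. Without Gata6STOP/+ replicate 3, 12 of 52 members were separated, where 14.6% of all genes were. Of the 12, 11 were higher, and the 9 additional members were *Adam17*, *Adam23*, *Adamts2*, *Adamts3*, *Adamts4*, *Adamts9*, *Adamts17*, *Adamts18* and *Adamtsl1*. Leaving out control replicates 3, 4 or 5 gave 8, 6 and 8 separated members, where 14.7%, 19.1% and 16.2% of all genes were separated. Leaving out Gata6STOP/+ replicates 1, 4 or 5 gave 4, 4 and 5, where 12.8%, 13.3% and 11.1% of all genes were. The median log2 fold change of the members was 0.070 without Gata6STOP/+ replicate 3. No member passed the adjusted threshold in any of these comparisons.

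Gene length was examined beside these differences. The 16 members spanning at least 100 kb of genome had a median difference between Gata6STOP/+ replicates 1 and 3 of 0.58 on the log2 scale, with 14 of 16 higher in replicate 1. The 36 shorter members had a median of 0.21, with 28 of 36 higher. Among all listed genes the medians were 0.094 for the 2010 genes of at least 100 kb and −0.020 for the 12706 shorter ones. Over members, Spearman's rho between this difference and gene span was 0.35 (n=52), and over all genes found in the annotation it was 0.22 (n=14716), as descriptions across genes that share the same libraries. Genotype differences also varied with span. The 16 long members had a median log2 fold change of 0.14, with 11 higher in Gata6STOP/+ pools, and the 36 shorter ones a median of −0.0043, with 17 higher. For all genes these medians were 0.039 and −0.0068.

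Promoter sequence was available from RefSeq for 32 of the 52 members, at 35 start sites on GRCm38.p6, with 250 bases before and 50 bases after each start. As *Gata6* encodes a factor that binds GATA letters in DNA, each promoter was searched on both strands for AGATAA, for TGATAA, for the form AGATAG with another last letter, and for TGATAG. These letters occurred in 3 of the 35 promoters of members (8.57%), in 18.8% of 13897 promoters of listed genes and in 29.8% of all 32851 promoters of 300 bases. The promoters of members had a median GC content of 66.0%, those of listed genes 60.7% and all promoters 52.7%. The 3 promoters belonged to *Adam19*, *Mmp15* and *Adamts20*. All 4 matches are printed 5′ to 3′ on the strand of the gene, with 12 bases on either side, because they were the only ones found among the members, and capitals mark the match.
*Adam19*, 152 bases upstream of a start, chr11:46054338-46054367, plus strand: gaatagaagagtTTATCAgaatctgacctg
*Adam19*, 19 bases upstream of the same start, chr11:46054471-46054500, plus strand: ctctctaagccaCTATCTgcttttccatta
*Mmp15*, 224 bases upstream of its start, chr8:95352060-95352089, plus strand: cctgctccccagAGATAGgagctaagcagg
*Adamts20*, 226 bases upstream of a start, chr15:94404559-94404588, minus strand: cactccgtgctcCTATCAcctgtcaacgtg

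The start used for *Adam19* lay 1.49 kb upstream of the gene's first base in GENCODE M21, and that for *Adamts20* lay 61.1 kb inside the gene. The log2 fold changes of *Adam19*, *Mmp15* and *Adamts20* were 0.016, −0.13 and 0.21, and their groups overlapped. The promoters of *Adam10* and *Mmp23*, whose groups did not overlap, held none of these letters in the window searched. For *Adam9*, whose groups did not overlap either, no promoter was available to search. A match is only a string of letters, and binding was not measured.

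Other enzymes and regulators of matrix turnover were taken from a list of 30 genes, of which 25 were in the table. Of these 0 of 25 passed the adjusted threshold in either direction, 4 had an unadjusted limma *P*-value under 0.05, and 10 were higher and 15 lower (median log2 fold change −0.049). Of all genes, 8.06% had such an unadjusted *P*-value. The groups did not overlap for 4 of the 25, against 8.47% of all genes. *Pcsk6*, a proprotein convertase, was at 51.7, 56.7 and 55.2 CPM in control and at 43.0, 48.1, 44.6 and 49.3 CPM in Gata6STOP/+ pools (log2 fold change −0.24, standard error 0.069, limma adjusted *P*-value 0.393). *Spock3*, a testican proteoglycan, was at 7.18±1.06 and 10.5±1.95 CPM (log2 fold change 0.51, standard error 0.152). *Ctsk*, the collagen-degrading cathepsin K, was at 6.97±0.655 and 5.27±0.839 CPM (log2 fold change −0.38, standard error 0.145). *Serpine2*, an inhibitor of serine proteases, was at 112±2.45 and 103±4.52 CPM (log2 fold change −0.12, standard error 0.057). *Bmp1*, the procollagen C-proteinase, was at 171±14.5 and 165±15 CPM, and its groups overlapped.

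The matrix proteins on which these enzymes act were taken from a list of 34 genes, 31 of them in the table. None of the 31 passed the adjusted threshold by limma (0 of 31), 4 had an unadjusted *P*-value under 0.05, and 14 were higher and 17 lower (median log2 fold change −0.028). The share of all genes with such an unadjusted *P*-value was 8.06%, and the groups did not overlap for 2 of the 31, against 8.47% of all genes. *Fbln1*, encoding the ADAMTS1 cofactor fibulin 1, was at 149, 156 and 159 CPM in control and at 132, 123, 129 and 142 CPM in Gata6STOP/+ pools. Every Gata6STOP/+ pool was below every control pool (log2 fold change −0.23, standard error 0.063, limma adjusted *P*-value 0.342). *Ltbp2*, a microfibril-binding protein with few reads, was at 1.05±0.596 and 2.07±0.239 CPM and was higher in every Gata6STOP/+ pool (log2 fold change 0.79, standard error 0.240, limma adjusted *P*-value 0.401). *Vcan*, encoding the proteoglycan versican, was at 1966±121 and 1815±183 CPM and overlapped between genotypes.

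The substrates followed the pattern of the proteases among pools. Their median deviation was 0.20 in Gata6STOP/+ replicate 1 and −0.23 in replicate 3, and it lay between −0.051 and 0.080 in the other 5 pools. *Eln*, encoding elastin, was at 1496 CPM in replicate 1 and 734 CPM in replicate 3, with the other 5 pools between 868 and 1187 CPM. The 25 other regulators had medians of −0.00035 in replicate 1 and −0.069 in replicate 3.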

How the data were processed

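Poly(A) RNA of 7 pools was sequenced from strand-marked libraries. The authors quantified reads with RSEM on GRCm38 (processing notes list Cutadapt and edgeR too), kept genes with at least 1 CPM in 3 samples, and deposited TMM-scaled CPM for 14732 genes. Of these, 14 had no symbol. The 7 columns of the deposited table were mapped by name, and 0 were left out. Each pool's CPM were divided by the worth of 1 read, after which 100% of values were whole within 0.01. On these reads edgeR 4.0.16 called 0 genes (quasi-likelihood) or 105 (likelihood ratio), and DESeq2 1.42.0 called 88. None of them was a member.

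Log2(CPM+0.5) was tested with limma 3.58.1 (trend, two-sided, no covariate, Benjamini-Hochberg over all genes). Reads were simulated for 14732 genes with 200 changed, drawn only from genes with more reads and with pools independent of one another. This comparison recovered 65% of genes changed by 0.5 and 97% of those changed by 1 on the log2 scale. It called 8 unchanged genes, and 0 when no gene was changed. On the same simulated reads, edgeR's likelihood ratio test called 36 unchanged genes, and 17 when no gene was changed. With the replicate number as a block that test called 56 and 26, and DESeq2 called 29 and 3. Each of these 3 recovered 76% of genes changed by 0.5. These shares hold for that setting and do not give the chance of finding a change in a member. In the data, the smallest limma adjusted *P*-value of all genes was 0.097. Exon length and gene span came from GENCODE M21, in which 14716 genes and all 52 members were found. The members and lists were chosen with earlier results of these data known. Values per pool were given for a set of widely studied members, members whose groups did not overlap, those with an unadjusted *P*-value under 0.05, and the member of highest level in each role. From the lists of other regulators and of substrates, genes whose groups did not overlap were named. *Adamts3*, *Adamts18*, *Mmp15*, *Mmp28*, *Bmp1*, *Vcan*, *Eln* and *Postn* fell outside this rule, with their values already seen when they were picked. Alternatives were other constants, a filter, other scalings, a replicate block, the count tests, and leaving out pools.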

Additional observations from a re-analysis of the deposited data

Results flagged for a closer look

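In a test for a pool far from the others of its group, run on the 4 Gata6STOP/+ pools of each member, 1 of 52 genes was past Dixon's 95% critical value, where chance gives about 1 in 20. This was *Loxl2*, at 884.3 CPM in Gata6STOP/+ replicate 3, against 1074 to 1089 CPM in the other 3 pools. The gap was 0.928 of the range of the group. The control group, with 3 pools, was not examined in this way.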

How the results depend on the processing

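No member passed the adjusted threshold in any of the 18 alternatives, and the median log2 fold change of the members stayed within the spread between pools, from −0.0096 to 0.070 when 1 pool was left out. The number of all genes past the threshold was 0 by limma, 1 with a constant of 0.1, 14 with the replicate number as a block, 105 by edgeR's likelihood ratio test, 118 with that test and the block, 88 by DESeq2, 2 without Gata6STOP/+ replicates 1 and 3, and 0 to 13 when 1 pool was left out. Separated members numbered 4 to 12 when 1 pool was left out (11.1% to 19.1% of all genes) and 13 without Gata6STOP/+ replicates 1 and 3 (22% of all genes), a choice made after seeing the data. Leaving out pools can only raise these counts. *Gata6* passed the threshold under the likelihood ratio test with the block (log2 fold change −0.42, edgeR adjusted *P*-value 0.0164). The paper reports the same log2 fold change for this gene. The cause of these shifts was not tested.

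Same-numbered pools of the genotypes did not deviate together, with correlations of −0.0084, −0.12 and −0.0016. These correlations cannot show whether litters or batches were shared, and no label states what the number marks. The block fit takes nothing from Gata6STOP/+ replicate 1, whose number no control pool shares. Of 25 members given by pool, 12 kept their direction in every alternative run for them, which were 18, or 17 for *Loxl4*, whose mean is below 5 CPM. The other 13 turned direction at least once. With the block, *Adam19* was at −0.063, *Adamts19* 0.035, *Adamts2* −0.0078, *Lox* −0.040, *Loxl2* −0.011, *Mmp14* −0.051 and *Timp1* 0.028 on the log2 scale. With the likelihood ratio test and the block they were at −0.062, 0.036, −0.0056, −0.040, −0.010, −0.050 and 0.029. *Mmp2* and *Reck* were at 0.015 and 0.0070 by the quasi-likelihood test, 0.015 and 0.0076 by the likelihood ratio test, and 0.016 and 0.0082 by DESeq2. Without Gata6STOP/+ replicates 1 and 3, *Mmp2* was at 0.025 and *Timp1* at 0.034. With 1 pool left out, log2 fold changes ranged from −0.063 to 0.14 for *Adam19*, −0.12 to 0.014 for *Adamts10*, −0.12 to 0.035 for *Adamts19*, −0.0078 to 0.31 for *Adamts2*, −0.040 to 0.23 for *Lox*, −0.13 to 0.017 for *Loxl1*, −0.060 to 0.15 for *Loxl2*, −0.051 to 0.11 for *Mmp14*, −0.12 to 0.13 for *Mmp2*, −0.093 to 0.084 for *Reck*, −0.037 to 0.028 for *Timp1*, −0.093 to 0.035 for *Timp2* and −0.036 to 0.075 for *Timp3*. Some members kept their direction but moved by more than 1.5 times from their value with all pools. These were *Adam11* (0.010 to 0.14), *Adamts1* (−0.18 to −0.027), *Adamts5* (−0.41 to −0.14) and *Adamts9* (0.076 to 0.22). *Adamtsl2* (0.13 to 0.42), *Loxl3* (−0.14 to −0.036) and *Loxl4* (−0.42 to −0.12) did so too. Those that moved less were *Adam9* (0.096 to 0.14), *Adam10* (0.19 to 0.26), *Adam17* (0.080 to 0.14), *Adamtsl1* (0.27 to 0.52) and *Mmp23* (−0.26 to −0.14). These results rest on 3 and 4 pools of 17783655 to 34467710 reads, and intervals cover the spread between pools only.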
